A study of Mus musculus with 6 samples.

Results

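The PI3K and AKT pathway genes described here are the 8 genes Pik3cd, Pik3r1, Pik3cg, Pik3r5, Akt1, Akt2, Pdpk1 and Phlpp1, of 19935 genes measured in mouse splenic B cells. They were chosen by name. Each was read from the probe sets that name it and no other gene, and the probe set with the brightest mean over all arrays was kept. All 8 were found on the arrays, and Akt2 was the member with more than 1 such probe set. RNA came from 3 CD37KO mice (Cd37 -/-), which lack the B cell tetraspanin CD37, and from 3 WT littermates. All 6 mice were untreated, on the C57BL/6J background and 3 months old by the labels, while the study's methods give an older range for mice whose spleens were taken. The deletion was carried by every cell of the CD37KO mice and was not limited to B cells. B cells were isolated from the spleen by removing cells that carry CD43, and B220, a B cell surface marker, was stained to assess purity. Total RNA of each mouse was hybridised to 1 Affymetrix gene array. All levels below are log2 values after RMA, so a difference of 1 is a doubling of the signal.

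Class I PI3K is a lipid kinase made of a catalytic and a regulatory subunit. It produces the membrane lipid PIP3, which draws the kinases PDK1 and AKT to the membrane, where PDK1 phosphorylates AKT. In mature B cells the pathway acts below the B cell receptor, and it is known for its part in survival, growth and the exclusion of FOXO transcription factors from the nucleus. Its activity is set mainly by phosphorylation and by lipid turnover, which an RNA array does not measure.

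None of the 8 genes passed the threshold of 0.05 on limma's adjusted p in CD37KO against WT B cells (adjusted p from 0.801 to 0.978), where 0.0552% of all genes passed, 0.0251% as higher and 0.0301% as lower. At an unadjusted p under 0.05, 1 of 8 passed, as a lower level in CD37KO, against 5.95% of all genes (2.96% higher and 2.99% lower). That gene was Pdpk1, which encodes PDK1, and it was also the member whose CD37KO and WT arrays did not overlap, against 11.9% of all genes (4.33% higher and 7.57% lower). The 8 differences were small. Of these, 4 were above 0 and 4 below, with a median of -0.0063, beside -0.019 over all genes and 0.017 over the 9874 genes above background in every array. Their median absolute difference was 0.062, against 0.068 for the genes above background. Together the 95% intervals of the 8 differences ran from 80.2% to 134% of the WT level, and the smallest absolute difference that any gene was called with was 0.54. In RNA of a bulk isolate, fewer cells of a type and less RNA per cell cannot be told apart.

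All 8 genes were above background in all 6 arrays. Background was set at a log2 level of 5.77, which 95% of 1015 olfactory receptor genes did not exceed on average, and the members lay between 8.11 and 10.54. Replicates lay close together for most of them. The SD within groups was between 0.036 for Pik3cg and 0.216 for Phlpp1, with a median of 0.089, against 0.103 for the genes above background. No group of arrays held the extremes. WT replicate 1 was the highest array for 3 members and WT replicate 2 the lowest for 4.

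**Figure D1:**
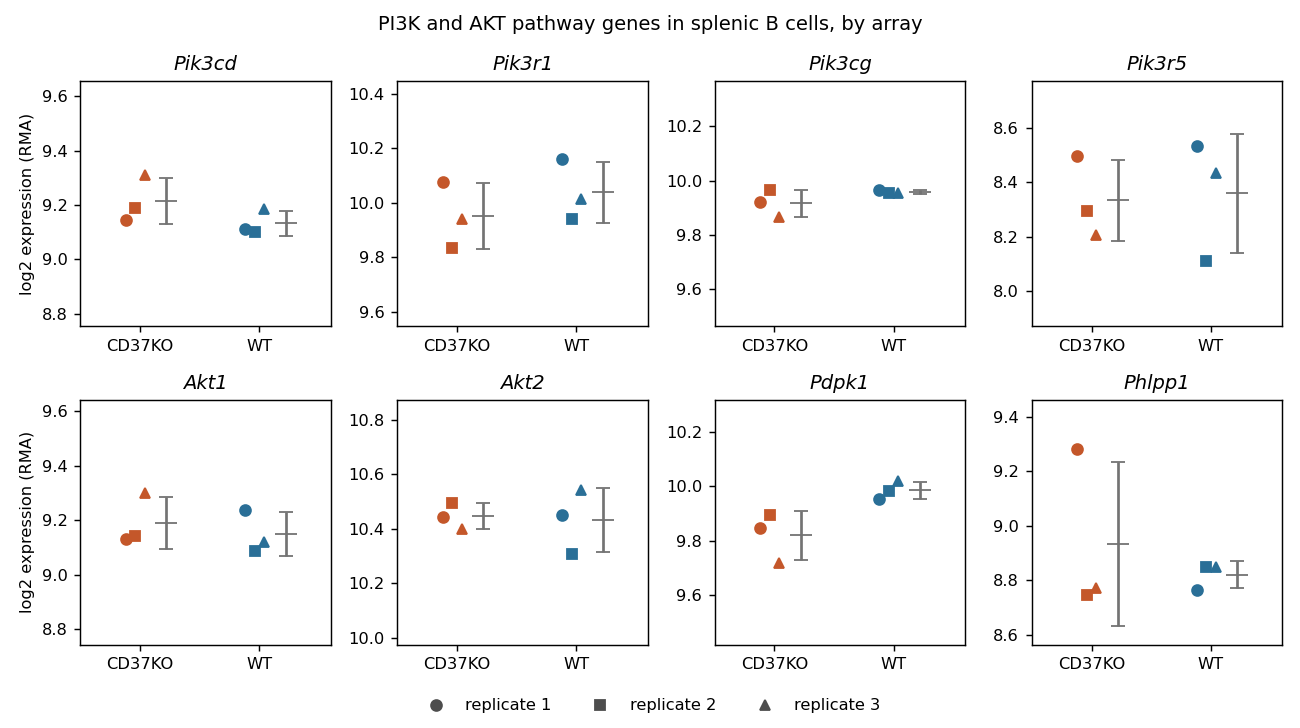
Log2 expression (y axis, RMA) of the 8 PI3K and AKT pathway genes in 3 CD37KO arrays (left of each panel) and 3 WT arrays (right). Each symbol is 1 mouse, the symbol's shape gives the replicate number, bars show the mean and SD, and every panel spans the same 0.9 log2 units. Pdpk1 is the gene whose groups do not overlap, and CD37KO replicate 1 stands alone for Phlpp1.

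Pik3cd encodes the catalytic subunit delta of class I PI3K, the main form below the B cell receptor. Its level was 9.15, 9.19 and 9.31 in the CD37KO arrays, against 9.11, 9.10 and 9.19 in the WT arrays. CD37KO replicates 2 and 3 lay above all WT arrays, and CD37KO replicate 1 lay below WT replicate 3. The difference was 0.08 (standard error 0.068, 95% interval -0.07 to 0.24, adjusted p = 0.833 from limma). Pik3r1 encodes the regulatory subunit alpha, which stabilises the catalytic subunits and docks them on phosphorylated receptors and adaptors. It was at 10.08, 9.84 and 9.94 in CD37KO and at 10.16, 9.94 and 10.01 in WT arrays. The groups overlapped, with the highest array in WT and the lowest in CD37KO. Its difference was -0.09 (standard error 0.086, 95% interval -0.28 to 0.11, adjusted p = 0.853 from limma).

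Pik3cg and Pik3r5 encode the catalytic subunit gamma and one of its regulatory partners, a form of PI3K that works below G protein-coupled receptors. Pik3cg had the tightest replicates of the members, with levels of 9.92, 9.96 and 9.87 in CD37KO arrays and of 9.97, 9.95 and 9.95 in WT arrays. The WT arrays had an SD of 0.0075, against 0.050 for the CD37KO arrays, and CD37KO replicate 3 was the lowest array. The difference was -0.04 (standard error 0.059, 95% interval -0.18 to 0.09, adjusted p = 0.893 from limma). Pik3r5 varied far more from mouse to mouse. Its levels were 8.50, 8.30 and 8.21 in CD37KO arrays, against 8.53, 8.11 and 8.43 in WT arrays. The highest and the lowest array were both WT, and the 3 CD37KO arrays lay between them. The difference of -0.03 (standard error 0.120, 95% interval -0.30 to 0.25, adjusted p = 0.971 from limma) was smaller than the SD within either group (0.148 in CD37KO and 0.219 in WT).

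PDK1, the product of Pdpk1, phosphorylates the activation loop of AKT and of several related kinases. Pdpk1 was at 9.85, 9.89 and 9.72 in CD37KO arrays and at 9.95, 9.98 and 10.02 in WT arrays. Every CD37KO array lay below every WT array, by a gap of 0.06 between the nearest arrays. Among the genes above background, 4.62% were lower in this way. The means were 9.82 ± 0.091 in CD37KO and 9.98 ± 0.033 in WT (SD, n = 3 each). The difference was -0.16 (standard error 0.067, 95% interval -0.32 to -0.0098), or 89.2% of the WT level with an interval from 80.2% to 99.3%. Its unadjusted p was 0.0397 and its adjusted p 0.801 from limma. The exact two-sided permutation test gave p = 0.1, the smallest that 3 arrays against 3 allow. When each array was left out in turn, the difference stayed between -0.20 and -0.11, and the unadjusted p was under 0.05 in 1 of the 6 fits, the one without CD37KO replicate 2.

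AKT1 and AKT2 are the kinases at the centre of the pathway. Akt1 was at 9.13, 9.14 and 9.30 in CD37KO and at 9.24, 9.09 and 9.12 in WT arrays. CD37KO replicate 3 was its highest array, and the other CD37KO arrays fell among the WT arrays. The difference was 0.04 (standard error 0.075, 95% interval -0.13 to 0.21, adjusted p = 0.912 from limma). Akt2 was at 10.44, 10.49 and 10.40 in CD37KO arrays, against 10.45, 10.31 and 10.54 in WT arrays. As with Pik3r5, the CD37KO arrays lay between the highest and the lowest WT array. Its difference was 0.01 (standard error 0.075, 95% interval -0.16 to 0.19, adjusted p = 0.978 from limma), the smallest in size of the members.

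A second reading of Akt2 was available from a dimmer probe set that also names no other gene. It gave 9.23, 9.08 and 9.19 in CD37KO arrays and 9.20, 9.10 and 9.22 in WT arrays. The groups overlapped there too, and the difference was -0.0076 (95% interval -0.17 to 0.15, adjusted p = 0.985 from limma). These probe sets differ in where their numbers place them on the array's design. Of the 20 probe sets with the nearest ID numbers, 19 beside the brighter one name genes of chromosome 11, whereas Akt2 lies on chromosome 7, and all 20 beside the dimmer one name genes of chromosome 7. For the kept probe sets of the other members, between 17 and 20 of 20 neighbours lay on the member's own chromosome. Which transcript the brighter Akt2 probe set detects was not tested. Akt2 shares chromosome 7 with Cd37, with 277 measured genes as the distance between them.

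PHLPP1 is a phosphatase that removes an activating phosphate from AKT. Phlpp1 was at 9.28, 8.75 and 8.77 in CD37KO and at 8.76, 8.85 and 8.85 in WT arrays. CD37KO replicate 1 stood above all other arrays, and the other CD37KO arrays lay close to the lowest WT array. The SD was 0.302 in CD37KO and 0.051 in WT (n = 3 each). The difference was 0.11 (standard error 0.134, 95% interval -0.20 to 0.42, adjusted p = 0.872 from limma), and without CD37KO replicate 1 it was -0.06. Of all members Phlpp1 had the widest range over the 6 arrays, 0.534.

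**Figure D2:**
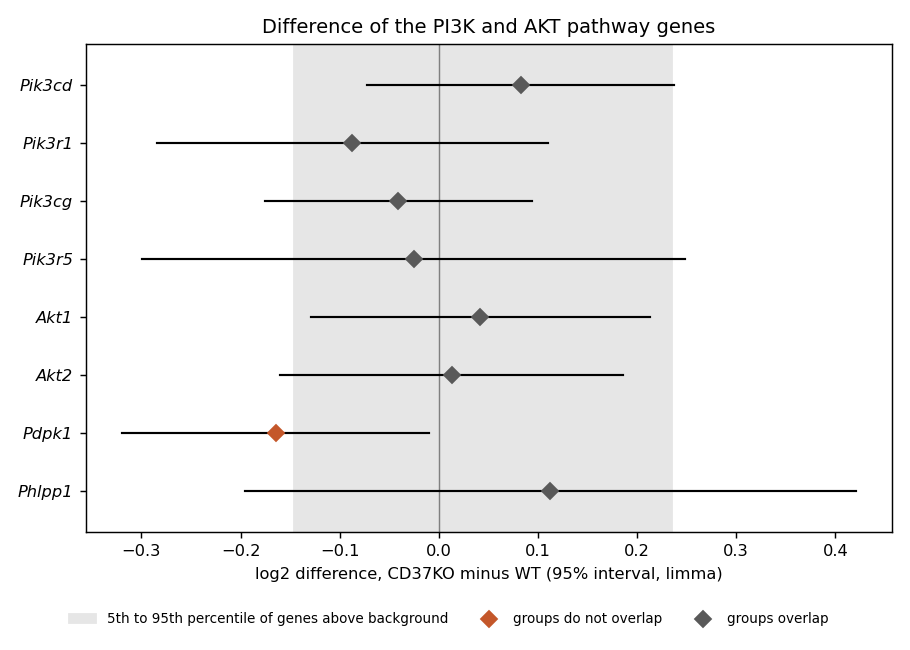
Log2 difference, CD37KO minus WT (x axis), of the 8 PI3K and AKT pathway genes. Diamonds are limma's estimates from 3 CD37KO and 3 WT arrays, lines their 95% intervals, and the grey band spans the 5th to 95th percentile of the differences of the 9874 genes above background (-0.15 to 0.24). All intervals but that of Pdpk1 include 0, and the upper end of that one is -0.0098.

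The array-to-array profiles of Phlpp1 and Pik3r5, the members with the widest ranges, were set against those of the 9873 other genes above background, after each gene was centred on its mean. Nearest to Phlpp1 by root mean square difference over the 6 arrays were Arhgap10 (0.036), a GTPase-activating protein, Sipa1l1 (0.050), another GTPase-activating protein, and Pank1 (0.053), a pantothenate kinase of coenzyme A synthesis. All 3 were highest in CD37KO replicate 1. For example, Arhgap10 was at 6.55, 6.02 and 5.96 in CD37KO arrays, against 6.00, 6.16 and 6.10 in WT arrays. Nearest to Pik3r5 were Ugcg (0.039), the glucosylceramide synthase, Fxyd5 (0.043), a regulator of the sodium pump, and Get1 (0.043), a receptor for tail-anchored membrane proteins. All 3 were lowest in WT replicate 2, and Get1 was at 7.40, 7.27 and 7.06 in CD37KO arrays and at 7.49, 7.04 and 7.39 in WT arrays. These genes were picked for their likeness, so the values describe it and test nothing.

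The promoters of the members were read as windows from 250 bases before to 50 bases after each annotated start, as given by RefSeq on GRCm38.p6. All 8 genes matched, with 17 windows among them. The letters GTAAACA, the core bound by FOXO factors that AKT phosphorylates, were searched on both strands. They occurred in windows of Akt1 and Pik3cg, 2 of 8 members, and in 4.05% of 27025 genes. Counted by window, they were in 2 of the members' 17 windows and in 3.65% of all 32851 windows. The members have more windows per gene than all genes do, so shares of genes are not compared like for like. GAGGAAG, a core bound by the B cell and myeloid factor PU.1, occurred in windows of Pik3cg alone among the members and in 15.4% of genes, and CCGGAAG, a core of other ETS factors, in no member and in 9.93% of genes. GAGGAAG and CCGGAAG overlap in the letters GGAAG. Akt1, Pik3cg and Pdpk1 each have 2 annotated starts, and 1 window of each is shown. In the Akt1 window shown, the GTAAACA letters lie 161 bases before the start. In the Pik3cg window shown, they lie 92 bases before it, with GAGGAAG letters at 152 and 190 bases before it. The other Pik3cg window overlaps this one and holds no GTAAACA. Its GAGGAAG letters are the same stretches of the genome, which lie 1 base before and 37 bases after its own start. Pdpk1, the member whose groups did not overlap, is shown for comparison by its window with more G and C, 71.7% against 48% in the other, and neither holds any of these letters. Capitals mark the letters found, on either strand, and each window is written 5′ to 3′ along its gene.
Akt1, chr12:112674835-112675134, minus strand: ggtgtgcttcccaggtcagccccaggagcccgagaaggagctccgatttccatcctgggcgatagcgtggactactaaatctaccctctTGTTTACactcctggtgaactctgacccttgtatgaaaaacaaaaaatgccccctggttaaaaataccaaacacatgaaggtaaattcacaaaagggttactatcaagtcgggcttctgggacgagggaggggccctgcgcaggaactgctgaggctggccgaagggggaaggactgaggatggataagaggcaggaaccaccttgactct
Pik3cg, chr12:32208421-32208720, minus strand: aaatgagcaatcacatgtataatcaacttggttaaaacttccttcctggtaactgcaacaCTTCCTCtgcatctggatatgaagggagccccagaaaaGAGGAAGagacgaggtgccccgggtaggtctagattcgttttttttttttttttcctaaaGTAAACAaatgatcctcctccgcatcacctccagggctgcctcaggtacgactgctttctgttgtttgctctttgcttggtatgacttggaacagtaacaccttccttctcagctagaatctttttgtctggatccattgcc
Pdpk1, chr17:24141545-24141844, minus strand: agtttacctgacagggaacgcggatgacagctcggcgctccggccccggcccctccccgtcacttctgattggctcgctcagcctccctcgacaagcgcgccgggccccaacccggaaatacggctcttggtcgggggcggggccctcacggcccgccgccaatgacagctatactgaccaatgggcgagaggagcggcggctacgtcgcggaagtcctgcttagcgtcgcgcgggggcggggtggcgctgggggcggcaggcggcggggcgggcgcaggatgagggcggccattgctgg
A match of letters is a description of the window and was not tested as a binding site. The genes that carry GTAAACA, Akt1 and Pik3cg, had differences of 0.04 and -0.04.

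Beyond the 8 members, 106 further genes of the pathway were listed in 10 roles, and 96 of them were measured, 82 above background in all arrays. None passed after limma's adjustment, in the fit over all genes or in any alternative to it. Without adjustment, 5 had a higher and 4 a lower level in CD37KO with a p under 0.05, together 9.38% of those measured, beside 5.95% of all genes (2.96% higher and 2.99% lower) and 7.2% of the genes above background in every array, to which 14 of the 96 do not belong. The groups did not overlap for 7 that were higher and 8 that were lower, 15.6% of those measured, beside 11.9% of all genes (4.33% higher and 7.57% lower). The median difference of the 96 genes was -0.023.

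Among the lipid kinases, the 5 other class I subunits and the 5 class II and III genes held no gene past an unadjusted p of 0.05. Pik3ca, the catalytic subunit alpha, had a difference of -0.08, and Pik3r2, the regulatory subunit beta, of 0.14. Pik3c2b, a class II kinase, was at 10.07, 10.19 and 10.26 in CD37KO arrays and at 10.29, 10.35 and 10.35 in WT arrays, without overlap (difference -0.15, unadjusted p = 0.0550). Pik3r4, the regulatory partner of the class III kinase, had a difference of -0.10 and Pik3c2a, another class II kinase, of -0.02. Of 9 measured genes that recruit PI3K, the docking adaptor Gab3 and the Ras-like GTPase Rras2 had differences of -0.11 and -0.12.

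The phosphatases that break down PIP3 and its products had 1 of 7 measured genes past an unadjusted p of 0.05. This was Inppl1, which encodes the 5-phosphatase SHIP2, at 7.32, 7.16 and 7.49 in CD37KO arrays and at 7.12, 6.91 and 7.08 in WT arrays. Its groups did not overlap, and the difference was 0.29 (95% interval 0.07 to 0.51, unadjusted p = 0.0164, adjusted p = 0.801 from limma). Inpp4a and Inpp5e, further phosphatases of this list, had differences of 0.15 and 0.09 with overlapping groups. In the list of AKT kinases and mTORC2, the complex that adds the other activating phosphate to AKT, 1 of 9 passed without adjustment. Mlst8, a subunit of both mTOR complexes, had a difference of 0.17 (unadjusted p = 0.0412), which was 0.10 (unadjusted p = 0.196) after a further quantile normalization. Mapkap1 and Prr5, subunits of mTORC2, had differences of 0.09 and -0.06.

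Of 12 further AKT brakes, the pseudokinases Trib1 and Trib2 passed an unadjusted p of 0.05 in opposite directions. Trib1 was at 8.39, 8.26 and 8.24 in CD37KO arrays, against 8.03, 8.06 and 8.17 in WT arrays, a difference of 0.21 without overlap (unadjusted p = 0.0165). Trib2 had a difference of -0.17 with overlapping groups (unadjusted p = 0.0481). Them4, whose product binds AKT, had a difference of 0.15. The median over these brakes was -0.022.

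Of 13 measured AKT substrates, 1 passed without adjustment, Akt1s1, which encodes the mTORC1 inhibitor PRAS40. It was at 6.32 in each of the CD37KO arrays, against 6.66, 6.46 and 6.71 in WT arrays. The CD37KO levels were above the background line of 5.77 but below the 99th percentile line of 6.40. The groups did not overlap and the difference was -0.29 (95% interval -0.46 to -0.11, unadjusted p = 0.00522, adjusted p = 0.801 from limma), the lowest p of the 96 genes. Akt1s1 lies on chromosome 7 at a distance of 28 measured genes from Cd37, and the part of that position in the result was not tested. Cdkn1b, the cell cycle inhibitor p27, had a difference of -0.18, or -0.08 as the mean of its probe sets, and Foxo4, a FOXO factor, of -0.13, both with overlapping groups. None of 9 measured genes of mTORC1 and its targets passed without adjustment. Rps6kb2, an S6 kinase, did not overlap between the groups with a difference of -0.12, and Eif4ebp2, a translation repressor, and Rheb, the GTPase that activates mTORC1, had differences of 0.22 and -0.07.

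The proteins that read PIP3 at the membrane had 2 of 12 genes past an unadjusted p of 0.05. Btk, the kinase that relays B cell receptor signals to phospholipase C, was at 10.18, 10.19 and 10.09 in CD37KO arrays, against 10.34, 10.53 and 10.29 in WT arrays. All CD37KO arrays lay below all WT arrays, with a difference of -0.23 (95% interval -0.41 to -0.06, unadjusted p = 0.0161, adjusted p = 0.801 from limma). Adap1, a GTPase-activating protein for ARF6, had a difference of 0.16 (unadjusted p = 0.0231), and Cyth3, an ARF exchange factor, of 0.15 (unadjusted p = 0.0710), both without overlap. Of 15 measured genes known to respond to FOXO factors, Rag1, a recombinase of developing lymphocytes, had a difference of 0.24 (unadjusted p = 0.0375), and Klhl24, of the kelch-like family, of -0.21 (unadjusted p = 0.0492). Sesn2, a stress-induced inhibitor of mTORC1, had a difference of 0.17, and the median of that list was 0.013. The WT levels of Adap1 and Rag1 were above the background line of 5.77 but below the 99th percentile line of 6.40.

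**Figure D3:**
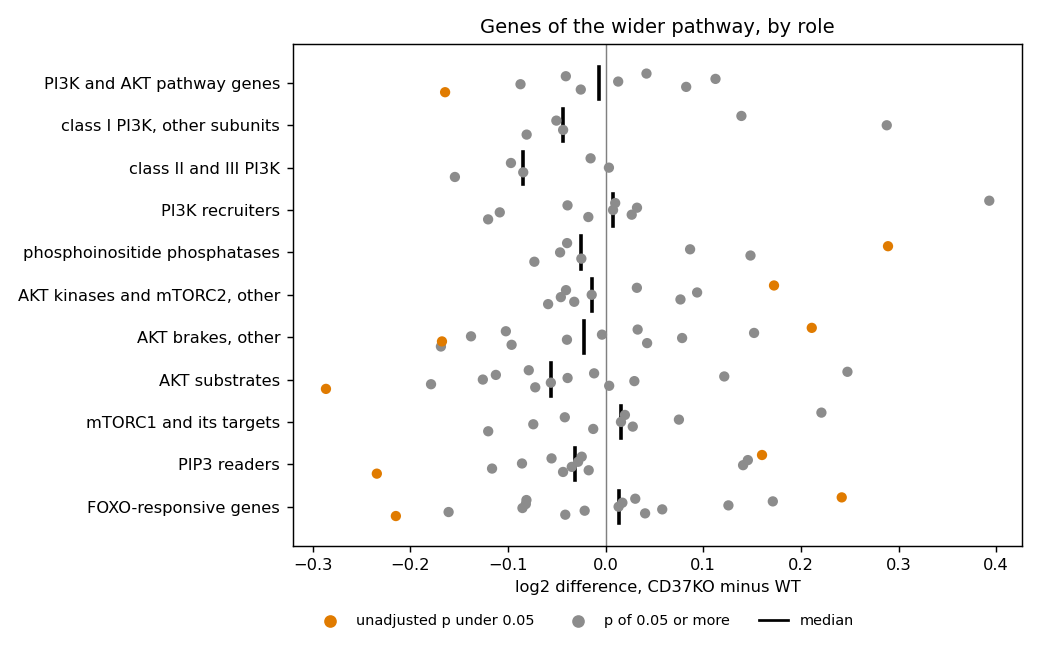
Log2 difference, CD37KO minus WT (x axis), of the 8 PI3K and AKT pathway genes (top row) and of the 96 measured genes of 10 further roles (rows below). Each point is 1 gene, orange points have an unadjusted p under 0.05 from limma, and the black bar is the median of the row. Orange points lie on both sides of 0, 5 of the 96 above and 4 below.

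Pik3cb, the catalytic subunit beta, and Gab2, a docking adaptor, stood out among the 96 genes by their spread within both groups, and Gab2 had the largest difference in size. Pik3cb was at 7.06, 6.28 and 7.12 in CD37KO arrays and at 6.94, 6.27 and 6.39 in WT arrays (difference 0.29, unadjusted p = 0.269). Gab2 was at 7.64, 6.38 and 7.32 in CD37KO arrays and at 7.22, 6.45 and 6.49 in WT arrays (difference 0.39, unadjusted p = 0.251). Leaving out 1 array moved the difference to between 0.14 and 0.56 for Pik3cb and to between 0.13 and 0.76 for Gab2, with the upper values without CD37KO replicate 2. Both were high in CD37KO replicates 1 and 3 and in WT replicate 1. The same arrays had the highest mean over 18 macrophage and monocyte markers, at 9.17, 8.02 and 9.13 in CD37KO arrays and at 9.03, 8.35 and 8.40 in WT arrays. Of those markers 15 were above background in all arrays and 1 in none, and the part of these cells in the 2 results was not tested.

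Of the checks on the cells, Cd37, the deleted gene, was at 8.15, 8.17 and 8.17 in CD37KO arrays and at 11.99, 11.83 and 12.08 in WT arrays, a difference of -3.80 (adjusted p = 1.37e-07 from limma). All 11 measured B cell markers were above background in all arrays, and their mean level was 11.51 to 11.54 in CD37KO and 11.53 to 11.62 in WT arrays, with the largest difference in Ighm (-0.21). Means of several other lists did not overlap between the groups. The neutrophil mean over 19 genes was 7.22, 6.16 and 6.64 in CD37KO arrays, against 5.90, 5.74 and 5.92 in WT arrays, and 14 of 19 had a higher level with an unadjusted p under 0.05, none of them after adjustment, beside 2.96% of all genes. That count was 7 without WT replicate 2 and between 10 and 15 when another array was left out, and it was 5 with ordinary least squares and 9 with a trended, robust eBayes. The largest difference was in Ngp (2.07), while 6 of 19 were above background in all arrays and 4 in none. Stromal and endothelial markers had a mean over 9 genes of 6.36, 6.39 and 6.34 in CD37KO arrays, against 6.64, 6.49 and 6.52 in WT arrays. Of these genes, 3 of 9 were lower at an unadjusted p under 0.05, beside 2.99% of all genes. Only 4 of the 9 were above background in all arrays and 2 in none, and Kdr, among the 3 lower ones, was above it in no array. The mean over 7 dendritic cell markers was 5.92, 5.83 and 5.95 in CD37KO arrays, against 5.97, 6.03 and 5.96 in WT arrays. The nearest arrays of the groups were almost level there, at 5.946 in CD37KO replicate 3 and 5.956 in WT replicate 3. Of the dendritic cell markers, 5 were above background in all arrays and 2 in none. CD37KO replicate 1, the array with the highest Phlpp1, had the highest neutrophil mean, but CD37KO replicate 3, the next highest, was among the lower arrays for Phlpp1, and the part of neutrophils in the level of Phlpp1 was not tested. In the other lists the gene with the largest difference was Lyz2 (0.58) for macrophages and monocytes, Thy1 (-0.23) for T cells, Nkg7 (-0.52) for NK cells, Siglech (-0.28) for dendritic cells, Slc4a1 (0.40) for erythroid cells, Jchain (0.47) for plasma cells and Igfbp7 (-0.71) for stromal and endothelial cells. These single genes do not stand for their lists, since the erythroid list had 2 of 5 genes higher and a median of -0.025, and the plasma cell list 4 of 6 higher and a median of 0.025. Nkg7 and Siglech lie on chromosome 7 at distances of 89 and 99 measured genes from Cd37. The part of that position in their levels, and in the means of their lists, was not tested.

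**Figure D4:**
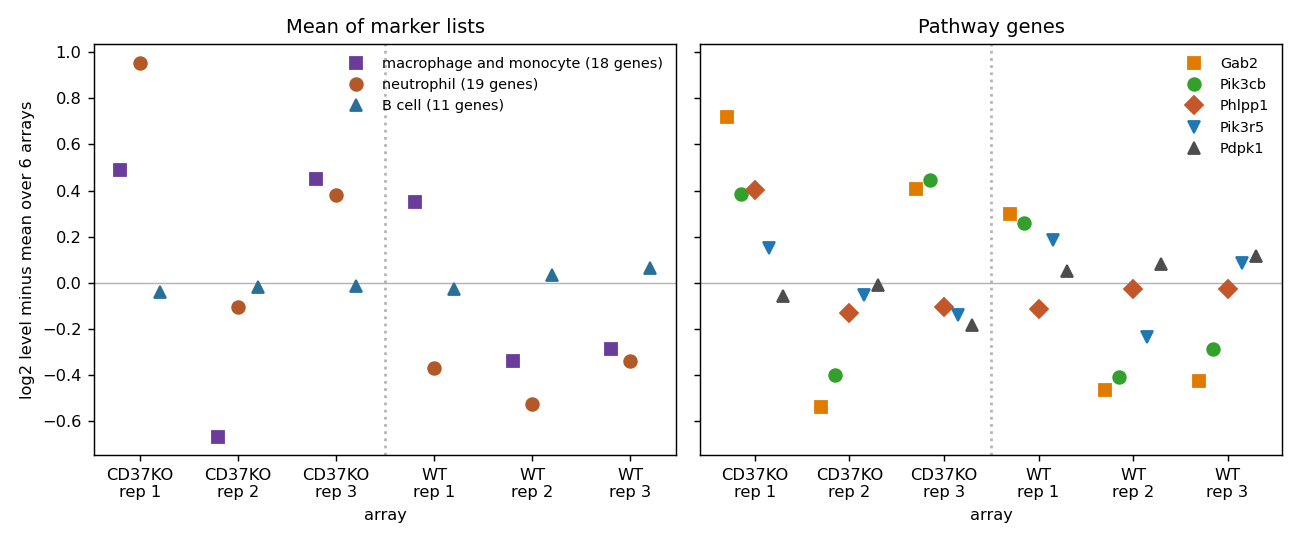
Log2 level minus the mean over the 6 arrays (y axis) in 3 CD37KO arrays (left of the dotted line) and 3 WT arrays (right of it). The left panel shows the mean of the macrophage and monocyte, neutrophil and B cell marker lists, and the right panel Gab2, Pik3cb, Phlpp1, Pik3r5 and Pdpk1. Gab2 and Pik3cb are high in the 3 arrays with high macrophage and monocyte markers, while none of Pdpk1, Pik3r5 and Phlpp1 is high in all 3.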

How the data were processed

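RNA of splenic B cells from 3 CD37KO and 3 WT mice was hybridised to arrays. The table that the authors deposited holds log2 values for 35361 probe sets. According to the submitters' processing notes they come from RMA, a method of background correction, normalization and summary over probes, and the build is mm8. RMA draws low signals together, so differences near background come out smaller than those of the RNA. A single gene is named by 21780 probe sets, which were used, while 1605 name several and 11976 name none in the annotation at hand. The brightest probe set by mean over the 6 arrays was kept for each of 19935 genes.

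Differences are CD37KO minus WT. They were fitted over all genes in R 4.3.3 by limma 3.58.1, with lmFit followed by eBayes. Tests were two-sided, p-values were adjusted by Benjamini-Hochberg, and the threshold was 0.05. The script was tested on simulated data. For single genes an exact permutation test over arrays was run in Python 3.11.15 with scipy 1.17.1. The members and the gene lists were chosen with earlier results of these data known. Named were the members, Cd37, up to 3 genes of each pathway list by unadjusted p, 1 gene of each marker list by size of difference, and the 3 nearest profiles of the 2 members with the widest range. The groups carry replicate numbers, which the labels do not tie to litters, so arrays were not paired. No source used here gives batches of array handling. Listed genes without a probe set of their own were not analysed here. The number of arrays limits the precision. Alternatives were a further quantile normalization, centring on the median, the mean of probe sets, genes above background only, array weights, ordinary least squares, a trended and robust eBayes, a block for the replicate number, each array left out, the other Akt2 probe set, and the 90th and 99th percentiles as background lines.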

Additional observations from a re-analysis of the deposited data

How the results depend on the processing

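No member passed an adjusted p under 0.05 in any of 113 alternative fits of single members, and the lowest was 0.226, for Pdpk1 with array weights. The direction was kept in 103 of the 113 fits. It turned in the other 10, in 4 members. With array weights the difference became -0.0045 for Akt1 and -0.016 for Akt2, and the other Akt2 probe set gave -0.0076. Leaving out each array in turn gave -0.013 to 0.087 for Akt1, -0.050 to 0.068 for Akt2, -0.149 to 0.061 for Pik3r5 and -0.061 to 0.206 for Phlpp1. It kept the direction but moved the size by over 1.5 times for Pik3cd (0.035 to 0.117), Pik3r1 (-0.150 to -0.026) and Pik3cg (-0.064 to -0.015). Pdpk1 stayed below 0 throughout, with an unadjusted p from 0.0209 to 0.143, and that p was not under 0.05 with the replicate block. The 8 members were above background with either other background line.

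The 11 genes called among all genes became 3 with ordinary least squares, 19 with array weights, 4 with the replicate number as a block, and 4 to 14 when each array was left out, namely 14 without CD37KO replicate 2, 4 without CD37KO replicate 1 or 3 or WT replicate 1, and 6 or 5 when WT replicate 2 or 3 was the one omitted. Among the 96 further pathway genes, those higher at an unadjusted p under 0.05 numbered 2 to 10 and those lower 2 to 5 when each array was left out. The higher ones numbered 10 without CD37KO replicate 2, 2 without CD37KO replicate 1 or 3 and 3 without WT replicate 1 or 2, and the lower ones 2 without CD37KO replicate 3. None passed the adjusted threshold in any alternative. Of the 9 genes under an unadjusted p of 0.05, 1, Akt1s1, was under it in all 14 alternatives. Same-numbered arrays correlated in their deviations from the group means by 0.302, 0.104 and -0.12 for replicates 1, 2 and 3, over 9874 genes. CD37KO replicate 3 and WT replicate 1 correlated by 0.366. Deviations from a mean of 3 arrays are tied to each other, so these values cannot decide whether the numbers pair the samples. The replicate block changed no call of a member. The cause of these shifts was not tested. With 3 arrays a group, differences of the size seen in the members could not be told from 0 after adjustment. Before it, limma's p was under 0.05 for Pdpk1 alone, the lowest p of the members. The exact permutation test gave p = 0.1 for that gene.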
